A study of Homo sapiens with 9 samples.

Results

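A list of 43 lysosome and autophagy genes was followed in Huh7 cells, a human hepatocarcinoma line, after siRNA against enzymes of ceramide synthesis. Each gene was read through the probe set annotated to it alone that had the highest mean log2 intensity over all 9 arrays, and 42 of the 43 genes had one, out of 19775 genes measured. GLB1, the lysosomal beta-galactosidase, was left out because its probe set is shared with TMPPE. The 42 genes comprised 16 lysosomal hydrolases, 2 lumenal proteins that are not enzymes, 7 membrane proteins, 5 proton pump genes, 10 autophagy genes and 2 transcription factors.

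The arrays fell into 3 groups of 3, given in the labels as biological replicates: scramble siRNA as the control, SPTLC123 siRNA, aimed at the serine palmitoyltransferase subunits SPTLC1, 2 and 3, and DEGS1 siRNA, aimed at dihydroceramide desaturase. All groups, the control included, received siRNA at a final 20 nM in a lipid reagent. The sample labels place the RNA at 72 h after transfection, whereas the protocol adds a low-serum medium with BSA at 72 h and collects the cells 24 h later, so the time of harvest is not settled by the sources used here. All cells were of 1 line, and transfection is transient, so a culture can hold cells with and without knockdown.

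Lysosomes are acidic organelles in which hydrolases degrade proteins, lipids and sugars delivered by endocytosis and by autophagy, and hepatocytes rely on them for turnover of cytoplasm during fasting. A proton pump, the V-ATPase, acidifies the lumen, heavily glycosylated membrane proteins such as LAMP1 and LAMP2 line it, and several hydrolases and the saposins made from PSAP break down sphingolipids to ceramide and on to sphingosine. TFEB and TFE3 are related transcription factors that, when mTORC1 is inactive, enter the nucleus and activate many lysosome and autophagy genes through a palindromic E-box, CACGTG, often read within TCACGTGA.

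The promoters of LAMP1, the gene with the largest fall, and of other genes on the list that hold this E-box are shown because they carry the element through which TFEB and TFE3 act. RefSeq promoters (GRCh38.p14, 250 bases before to 50 after each start) were matched to 32 of the 42 genes. CACGTG, which reads the same on both strands, lay in the promoters of 8 of these 32 genes (25.0%), against 8.77% of 27305 genes in the whole table. TCACGTGA, also palindromic and containing CACGTG, lay in those of 5 (15.6%), against 1.18% of all genes. The list holds genes long studied as lysosomal, so these shares describe the list and were not tested. The LAMP1 promoter held 6 copies of CACGTG, and no other among 35116 promoters held as many; 5 of them lie in the 250 bases before the start at chr13:113296989-113297238 on the plus strand. The other windows are chr20:45891283-45891334 (plus strand) for CTSA, chr16:67481184-67481243 (minus) for ATP6V0D1, chr17:80101478-80101537 (plus) for GAA, chr19:7522556-7522615 (plus) for MCOLN1 and chr14:55411831-55411877 (minus) for ATG14. Capitals mark CACGTG in LAMP1 and ATG14, and TCACGTGA and CACGTG in the others. The last copy marked in LAMP1 lies within TCACGTGA, so LAMP1 is among the 5 genes that hold it.
LAMP1: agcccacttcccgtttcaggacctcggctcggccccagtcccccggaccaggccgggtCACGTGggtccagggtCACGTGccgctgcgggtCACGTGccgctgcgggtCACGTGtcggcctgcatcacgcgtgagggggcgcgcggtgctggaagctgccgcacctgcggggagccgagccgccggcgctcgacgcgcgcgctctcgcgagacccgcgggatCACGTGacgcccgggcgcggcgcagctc
CTSA: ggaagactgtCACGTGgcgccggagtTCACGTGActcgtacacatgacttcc
ATP6V0D1: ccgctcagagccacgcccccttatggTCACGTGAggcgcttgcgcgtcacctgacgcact
GAA: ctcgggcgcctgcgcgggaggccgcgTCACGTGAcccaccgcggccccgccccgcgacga
MCOLN1: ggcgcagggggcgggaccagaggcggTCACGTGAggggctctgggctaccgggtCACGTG
ATG14: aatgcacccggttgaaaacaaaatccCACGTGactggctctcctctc
ATG14, CTSD and CD63 held the 6-base core alone. A match is a sequence in a window, and occupancy by a factor was not measured.

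Values are normalized intensities, given here as log2, with ± as the SD over 3 arrays for a level and as the SE of the limma fit for a change. A gene was called when its Benjamini-Hochberg adjusted p over all 19775 genes was under 0.05. Targets were low in every array of their group: SPTLC1 and SPTLC2 kept 20.7% and 48.4% of the scramble signal in SPTLC123, and DEGS1 kept 7.55% in DEGS1 siRNA. SPTLC3 was not analysed here. All 8 measured hepatocyte markers, ALB and AFP among them, exceeded 4.86, the median over every probe set. Their log2 summed intensity spanned 16.52 to 16.60 in scramble, 16.22 to 16.32 in SPTLC123 and 16.42 to 16.51 in DEGS1. By limma TTR, APOA1, TF and SERPINA1 were called lower in SPTLC123 (-1.03, -0.46, -0.37 and -0.33), and ALB, AFP, APOB and FGB were not called. In DEGS1 against scramble TTR alone was called (-0.69). APOA1 and FGB were called higher in DEGS1 than in SPTLC123 (0.67 and 0.79). Of 9 macrophage markers 4 lay above that median, and the leucocyte gene PTPRC, at 3.20 to 3.92, did not. The 9 summed to 12.61 to 12.84, 12.97 to 13.12 and 12.55 to 12.73 in the same order, and LYZ among them read 12.49 to 13.09. LYZ was higher in SPTLC123 by 0.29 (adjusted p = 0.103, not called), whereas CD14, ITGAM and AIF1 were called lower there by limma (-0.62, -0.51 and -0.57), and CD14 in DEGS1 (-0.54). Between the knockdowns LYZ was called lower in DEGS1 (-0.38, adjusted p = 0.0438). Of 7 endothelial and stromal markers 4 lay above the median, with sums of 9.02 to 9.06, 8.87 to 9.08 and 8.68 to 8.93. PECAM1 alone among them was called by limma, lower in DEGS1 than in SPTLC123 (-0.37, adjusted p = 0.0412). The part of these shifts in the results was not tested. On 3 arrays, SPTLC123 replicate 3 and DEGS1 replicates 2 and 3, the actin control probe sets at the 3' end exceeded those at the 5' end by 1.15 to 1.31, against 0.40 to 0.56 on the other 6. They are called the arrays with weak 5' signal below.

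In SPTLC123 against scramble, 5 of the 42 genes fell and none rose, so 11.9% of them were called by limma against 9.94% of all genes (4.63% lower and 5.31% higher). At an unadjusted p under 0.05 the same fit gave 5 higher and 9 lower of the 42 there, 5 and 15 in DEGS1 against scramble and 9 and 7 between the knockdowns. The share of all genes at that threshold was not counted. The 5 genes called in SPTLC123 were the proteases CTSB, CTSH and TPP1 and the membrane proteins LAMP2 and CD63. In DEGS1 against scramble 9 of 42 were called (21.4%, against 9.7% of all genes, 4.66% higher and 5.04% lower): CTSA, ARSA and ULK1 rose, and CTSB, CTSL, GALC, LAMP1, LAMP2 and ATP6V1B2 fell. In DEGS1 against SPTLC123 8 were called (19.0%, against 8.66%, 3.7% higher and 4.96% lower): CTSH, TPP1, ARSA and ATG14 were higher and GALC, LAMP1, ATP6V1H and ATP6AP1 lower in DEGS1. The share over all genes includes dim genes. When genes with no group mean above 4.86, the median over every probe set, were left out, 41 of the 42 remained. Of these 41, 6, 10 and 8 were then called in the 3 comparisons, against 2082, 2115 and 1834 of 12955 genes. In SPTLC123 against scramble the share of the 41 was below that of all genes kept, and in the other comparisons above it. The median log2 change of the 42 genes was -0.08, -0.08 and -0.03 in these comparisons, and that of all genes -0.03, -0.01 and 0.01. Groups did not overlap for 18, 15 and 20 of the 42, against 28.9%, 26.3% and 25.5% of all genes. The same 3 control arrays serve both comparisons against scramble, so their values are set side by side only. Each array reads the pooled RNA of a culture, so fewer cells with a transcript and less transcript per cell cannot be told apart.

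These counts moved with single arrays. The 5 calls in SPTLC123 became 2, 1 and 3 without scramble replicate 1, 2 and 3, and 2, 5 and 3 without SPTLC123 replicate 1, 2 and 3. The 9 calls in DEGS1 became 5, 5 and 4 without scramble replicate 1, 2 and 3, and 18, 4 and 3 without DEGS1 replicate 1, 2 and 3. For DEGS1 against SPTLC123 the 8 became 5, 4 and 9 without SPTLC123 replicate 1, 2 and 3, and 15, 5 and 5 without DEGS1 replicate 1, 2 and 3. The calls on CTSB and LAMP2 in DEGS1 against scramble, CTSB in SPTLC123 against scramble, LAMP1 in both comparisons that involve DEGS1, and ARSA, TPP1 and ATP6V1H in DEGS1 against SPTLC123 held without any single array.

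**Figure D1:**
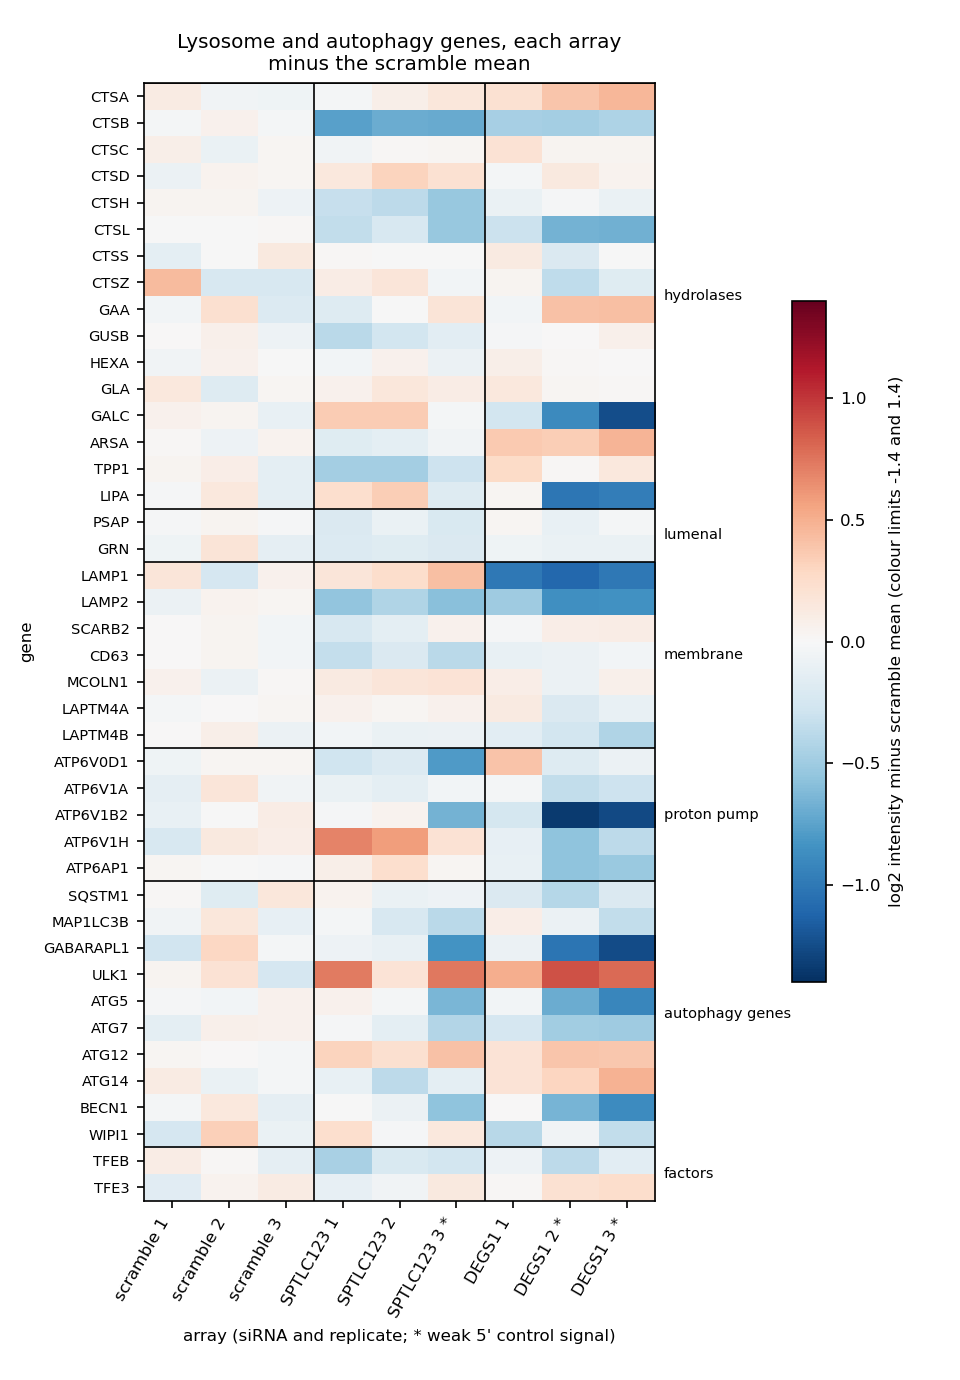
Colour shows the log2 intensity of each of the 42 genes (rows, grouped by family) in each of the 9 arrays (columns) minus that gene's scramble mean; asterisks mark the arrays with weak 5' signal. LAMP1 is blue in all 3 DEGS1 arrays, and ATP6V1B2, GABARAPL1 and LIPA are blue chiefly in DEGS1 replicates 2 and 3.

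**Figure D2:**
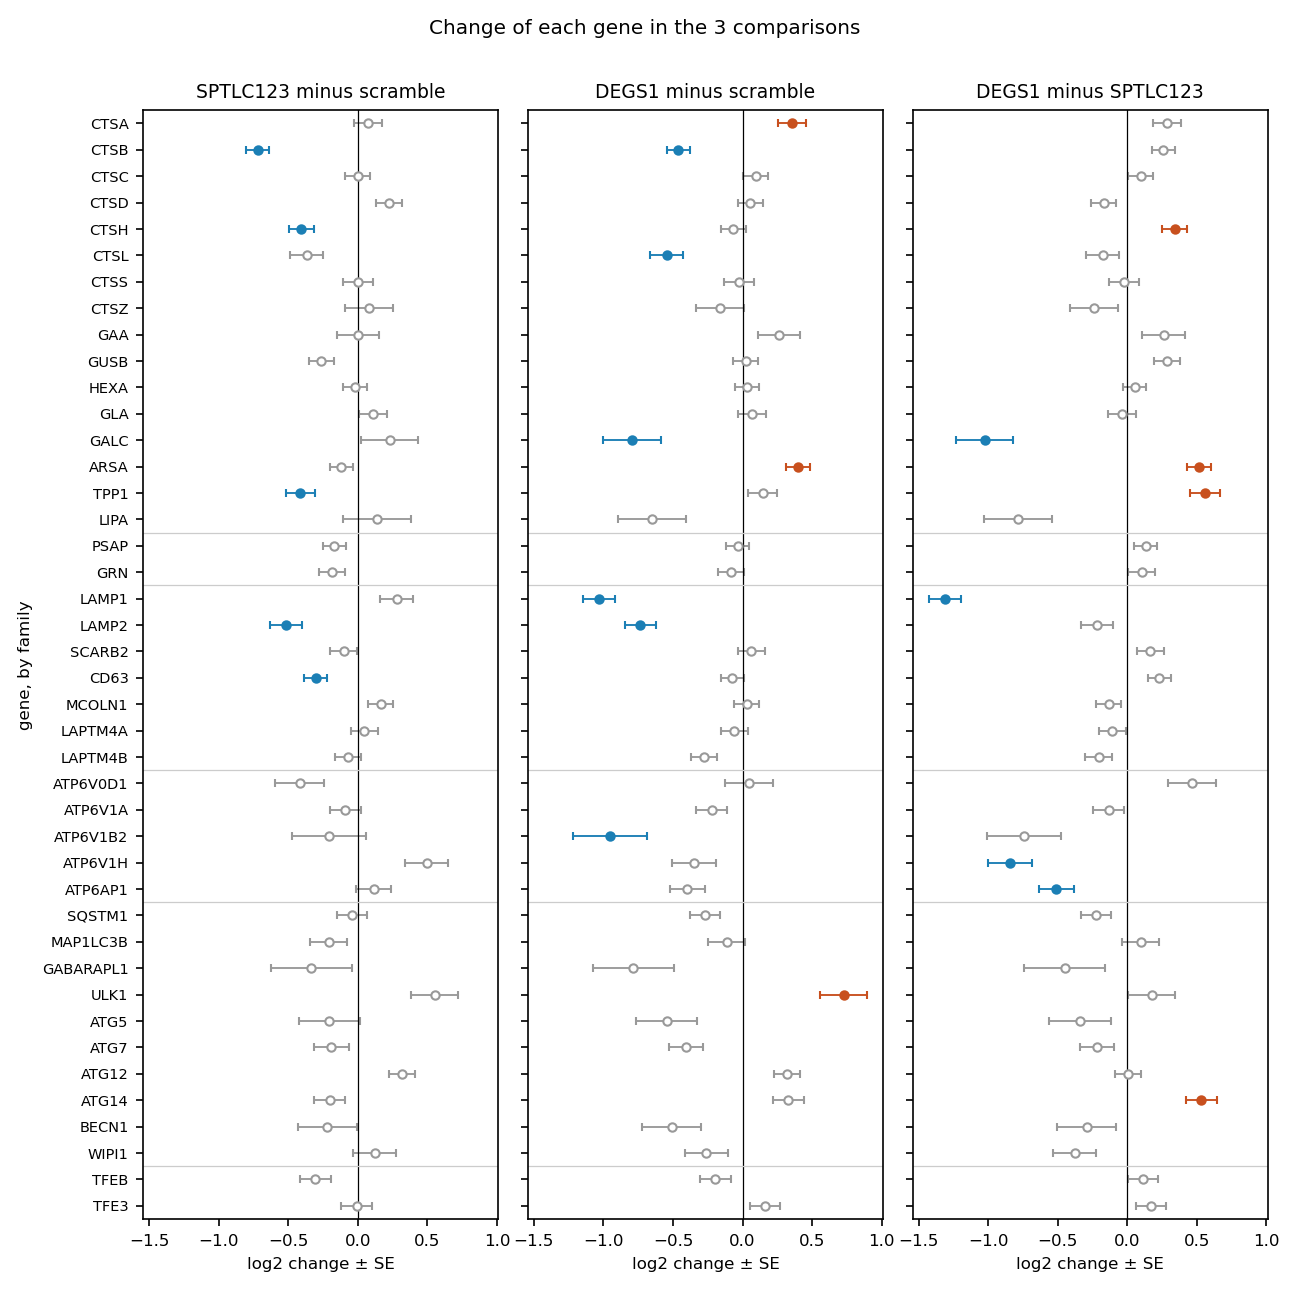
Points are log2 changes of the 42 genes, bars their SE from the limma fit, for SPTLC123 minus scramble, DEGS1 minus scramble and DEGS1 minus SPTLC123; filled blue points were called lower, filled orange points higher and open grey points were not called. Lines part the families, and the point farthest to the left is LAMP1 in DEGS1 minus SPTLC123, at -1.31.

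Of the 16 hydrolases 3 fell in SPTLC123, 2 rose and 3 fell in DEGS1, and 3 were higher and 1 lower in DEGS1 than in SPTLC123; their median changes were 0.00, 0.03 and 0.07. CTSB, cathepsin B, a cysteine protease of the lysosome, read 11.14, 11.22 and 11.14 in scramble, 10.40, 10.47 and 10.47 in SPTLC123 and 10.70, 10.69 and 10.73 in DEGS1. The 3 groups did not overlap, with scramble highest and SPTLC123 lowest. CTSB fell by 0.72 ± 0.08 in SPTLC123 (adjusted p = 0.000289, 60.7% of the scramble signal) and by 0.46 ± 0.08 in DEGS1 (adjusted p = 0.00519, 72.6%). The difference between the knockdowns, 0.26 ± 0.08, was not called (adjusted p = 0.0734). Of its 4 other probe sets, 4 had the same sign in SPTLC123 and 3 in DEGS1, and 2 were called lower in each. In DEGS1 replicate 1, whose 5' signal was not weak, CTSB differed from the scramble mean by -0.47, and in replicates 2 and 3 together by -0.46.

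CTSH, cathepsin H, an aminopeptidase, read 8.61, 8.61 and 8.49 in scramble and 8.25, 8.20 and 8.04 in SPTLC123, with no overlap. It fell by 0.41 ± 0.09 (adjusted p = 0.0153), and the call was lost without scramble replicate 1 or 2 or SPTLC123 replicate 3 (adjusted p = 0.0522, 0.0531 and 0.0602). In DEGS1 its mean was 8.50 ± 0.05, a change of -0.07 ± 0.09 (adjusted p = 0.715). The 2 knockdowns differed by 0.34 ± 0.09 (adjusted p = 0.0398), a call that held in 1 of 6 fits without a single array and was lost without any SPTLC123 array or DEGS1 replicate 2 or 3, at adjusted p up to 0.145.

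TPP1, tripeptidyl peptidase 1, whose loss causes a childhood neuronal storage disease, read 8.76, 8.81 and 8.58 in scramble, 8.24, 8.24 and 8.43 in SPTLC123 and 8.99, 8.73 and 8.86 in DEGS1. All SPTLC123 arrays lay below all others, while the scramble and DEGS1 ranges overlapped. It fell by 0.41 ± 0.11 in SPTLC123 (adjusted p = 0.0297), and this call was lost without scramble replicate 1 or 2 or SPTLC123 replicate 1 or 2, at adjusted p from 0.0867 to 0.108. DEGS1 exceeded SPTLC123 by 0.56 ± 0.11 (adjusted p = 0.00756), by 0.37 within the arrays with weak 5' signal and by 0.75 within the others. Its 3 other probe sets had the same sign in SPTLC123 against scramble, and none of them was called. Between the knockdowns 2 of these 3 had the same sign, and none was called. With the mean of the probe sets of TPP1 both calls were lost. The changes were then -0.27 in SPTLC123 against scramble and 0.28 between the knockdowns (adjusted p = 0.158 and 0.159).

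CTSL, cathepsin L, an endopeptidase, read 9.65, 9.65 and 9.67 in scramble, 9.31, 9.43 and 9.12 in SPTLC123 and 9.36, 9.00 and 8.99 in DEGS1. Scramble lay above both knockdowns, and the arrays with weak 5' signal were the lowest of their groups. CTSL fell by 0.54 ± 0.12 in DEGS1 (adjusted p = 0.0163), a call lost without scramble replicate 3 or DEGS1 replicate 2 or 3 (adjusted p = 0.0598, 0.0779 and 0.079). In SPTLC123 its change was -0.37 ± 0.12 (adjusted p = 0.0777).

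CTSA, the carboxypeptidase that also protects beta-galactosidase and neuraminidase, read 10.80, 10.64 and 10.63 in scramble, 10.67, 10.78 and 10.85 in SPTLC123 and 10.91, 11.08 and 11.16 in DEGS1. DEGS1 lay above both other groups, which overlapped. CTSA rose by 0.36 ± 0.10 in DEGS1 (adjusted p = 0.0476). The call was lost without any scramble array or DEGS1 replicate 2 or 3, at adjusted p from 0.0536 to 0.191. Its promoter holds TCACGTGA, as printed above.

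ARSA, arylsulfatase A, which removes sulfate from sulfatide, read 6.35, 6.26 and 6.37 in scramble, 6.16, 6.19 and 6.28 in SPTLC123 and 6.69, 6.67 and 6.80 in DEGS1. All DEGS1 arrays lay above all others. ARSA rose by 0.40 ± 0.09 against scramble (adjusted p = 0.0159, lost without scramble replicate 2 or DEGS1 replicate 3 at 0.056 and 0.0778). It exceeded SPTLC123 by 0.51 ± 0.09 (adjusted p = 0.00408). DEGS1 replicate 1 stood 0.37 above the scramble mean, and replicates 2 and 3 together 0.41.

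GALC, galactosylceramidase, which releases ceramide from galactosylceramide, read 8.94, 8.92 and 8.77 in scramble, 9.24, 9.23 and 8.86 in SPTLC123 and 8.62, 7.98 and 7.64 in DEGS1. DEGS1 lay below both other groups, and its 3 arrays were spread, with an SD of 0.50. GALC fell by 0.80 ± 0.21 against scramble (adjusted p = 0.0352). The call was lost without any scramble array or DEGS1 replicate 2 or 3, at adjusted p from 0.0807 to 0.132. DEGS1 replicate 1 differed from the scramble mean by -0.26, and replicates 2 and 3 by -1.07 together. Against SPTLC123 the difference was -1.03 ± 0.21 (adjusted p = 0.0111; -1.04 within the arrays with weak 5' signal and -0.61 within the others). This call was lost without SPTLC123 replicate 1 or 2 or DEGS1 replicate 2 (adjusted p = 0.0556, 0.0508 and 0.0516). The other probe set of GALC read 6.79, 7.07 and 7.04 in scramble, 7.49, 7.72 and 5.14 in SPTLC123 and 6.90, 4.15 and 4.16 in DEGS1. With the mean of the probe sets of GALC both calls were lost (-1.35 and -1.37, adjusted p = 0.135 and 0.133).

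LIPA, the acid lipase that frees cholesterol and fatty acids, was not called. It read 10.36, 10.53 and 10.24 in scramble, 10.62, 10.73 and 10.20 in SPTLC123 and 10.40, 9.37 and 9.41 in DEGS1. DEGS1 replicate 1 lay within the scramble range and the other DEGS1 arrays well below it, giving a change of -0.65 ± 0.24 (adjusted p = 0.123). Without DEGS1 replicate 1 it was -0.99 (adjusted p = 0.00176).

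CTSC, dipeptidyl peptidase 1, was not called through its chosen probe set (change of 0.09 ± 0.09 in DEGS1 against SPTLC123, adjusted p = 0.589). Its probe sets disagreed: 2 of its 3 others were called lower in DEGS1 than in SPTLC123 when every probe set was tested on its own, with differences of -0.83 and -0.48 (adjusted p = 0.00171 and 0.0183). The first was also called higher in SPTLC123 than in scramble (0.63) and the second lower in DEGS1 than in scramble (-0.44). The remaining hydrolases were the aspartic protease CTSD, the cathepsins CTSS and CTSZ, the alpha-glucosidase GAA, the beta-glucuronidase GUSB, the hexosaminidase subunit HEXA and the alpha-galactosidase GLA. None was called in any comparison through its chosen probe set, and CTSS was the only gene of the 42 whose mean, 4.54, was under 4.86. HEXA changed by -0.02 ± 0.09 in SPTLC123 and 0.03 ± 0.09 in DEGS1 (adjusted p = 0.925 and 0.867). Of its 3 other probe sets 1, with a mean of 4.86, was called higher in both when tested on its own (0.55 each, adjusted p = 0.0348 and 0.0395). CTSD changed by 0.22 ± 0.09 in SPTLC123 (adjusted p = 0.158), GUSB by -0.26 ± 0.09 (adjusted p = 0.103) and GAA by 0.26 ± 0.15 in DEGS1 (adjusted p = 0.332).

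PSAP, the precursor of the saposins that present sphingolipids to their hydrolases, and GRN, progranulin, were not called by limma in any comparison, and none of their changes had an unadjusted p under 0.05. PSAP read 12.26 ± 0.03 in scramble, 12.09 ± 0.07 in SPTLC123 and 12.22 ± 0.06 in DEGS1. Its change was -0.17 ± 0.08 in SPTLC123 (adjusted p = 0.268) and -0.04 ± 0.08 in DEGS1 (adjusted p = 0.851). GRN changed by -0.19 ± 0.10 (adjusted p = 0.277) and -0.08 ± 0.10 (adjusted p = 0.656).

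Of the 7 membrane proteins 2 fell in SPTLC123 and 2 in DEGS1, and 1 was lower in DEGS1 than in SPTLC123. LAMP1 and LAMP2 are related glycoproteins that together make up much of the protein of the lysosomal membrane. LAMP1 (chr13:113297239-113323672, GRCh38.p14) read 11.93, 11.53 and 11.83 in scramble, 11.93, 12.01 and 12.19 in SPTLC123 and 10.76, 10.67 and 10.77 in DEGS1. All DEGS1 arrays lay below all others, and the lowest SPTLC123 array lay just above the highest scramble array, both 11.93 when rounded. LAMP1 fell by 1.03 ± 0.12 in DEGS1 (adjusted p = 0.000465, 48.9% of the scramble signal). In SPTLC123 the change was 0.28 ± 0.12 (adjusted p = 0.176). The knockdowns differed by -1.31 ± 0.12 (adjusted p = 7.92e-05, 40.3% of the SPTLC123 signal). DEGS1 replicate 1, without weak 5' signal, stood at -1.004 from the scramble mean, and replicates 2 and 3, with it, at -1.05 together. DEGS1 differed from SPTLC123 by -1.47 within the arrays with weak 5' signal and by -1.21 within the others. Of its 3 other probe sets 2 were called lower in DEGS1 when each was tested on its own (-1.78 and -0.61). The first of these read 10.79, 10.53 and 10.58 in scramble and 9.30, 8.66 and 8.62 in DEGS1, so that its fall was smaller in replicate 1. The third ranged from 6.98 to 9.42 within scramble and was not called (-0.38).

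LAMP2 (chrX:120426148-120469349), which also has a splice form that takes up proteins in chaperone-mediated autophagy, read 10.28, 10.41 and 10.39 in scramble, 9.81, 9.94 and 9.78 in SPTLC123 and 9.86, 9.50 and 9.51 in DEGS1. Scramble lay above both knockdowns, which overlapped. LAMP2 fell by 0.52 ± 0.11 in SPTLC123 (adjusted p = 0.0143, 69.9% of the scramble signal) and by 0.73 ± 0.11 in DEGS1 (adjusted p = 0.00269, 60.1%). The knockdowns differed by -0.22 ± 0.11 (adjusted p = 0.285). DEGS1 replicate 1 differed from the scramble mean by -0.49, and replicates 2 and 3, with weak 5' signal, by -0.85 together. The 3 other probe sets of LAMP2 had the same sign in both knockdowns. Tested on their own, 1 of them was called lower in SPTLC123 and none in DEGS1. The call in SPTLC123 was lost without scramble replicate 2 or 3 or SPTLC123 replicate 1 or 3, at adjusted p from 0.0519 to 0.056. It was also lost with the mean of the probe sets of LAMP2 (-0.50, adjusted p = 0.117). The array probe sets of LAMP2 were not assigned to its splice forms here.

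**Figure D3:**
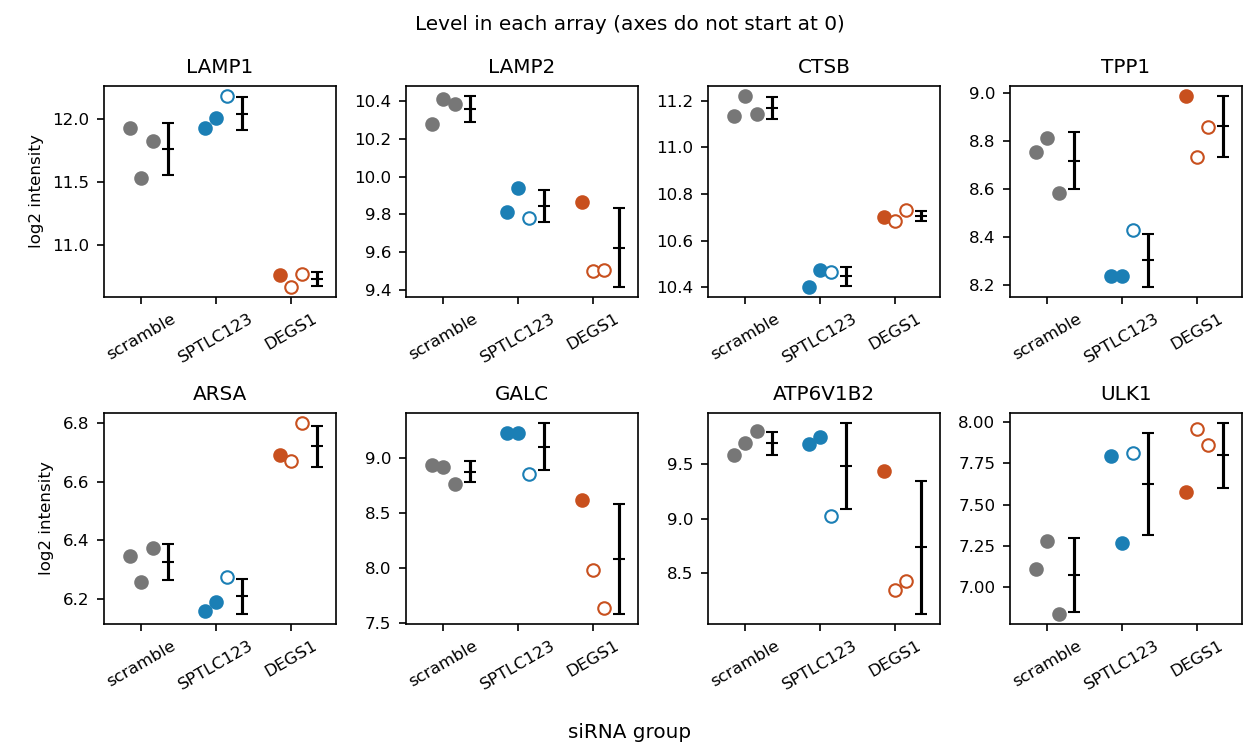
Each panel plots the log2 intensity of 1 gene (axes do not start at 0) by siRNA group; points are arrays, open where the 5' signal was weak, and the bar beside them is the mean with its SD over 3 arrays. The DEGS1 arrays of LAMP1 sit between 10.67 and 10.77, below all others, whereas those of GALC and ATP6V1B2 are spread.

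CD63, a tetraspanin of late endosomes, lysosomes and exosomes, read 12.22, 12.24 and 12.17 in scramble, 11.88, 12.00 and 11.84 in SPTLC123 and 12.11, 12.13 and 12.17 in DEGS1. SPTLC123 lay below both other groups. CD63 fell by 0.30 ± 0.08 in SPTLC123 (adjusted p = 0.0444), a call that held in 1 of 6 fits without a single array. It was lost without any scramble array or SPTLC123 replicate 1 or 3, at adjusted p from 0.0868 to 0.135. Its other changes, -0.07 ± 0.08 in DEGS1 against scramble and 0.23 ± 0.08 between the knockdowns, were not called (adjusted p = 0.66 and 0.128).

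The remaining membrane proteins were not called. MCOLN1, the lysosomal calcium channel, read 7.38 ± 0.08 in scramble, 7.55 ± 0.03 in SPTLC123 and 7.41 ± 0.10 in DEGS1. It changed by 0.16 ± 0.09 (adjusted p = 0.308) and 0.03 ± 0.09 (adjusted p = 0.891) against scramble. The 5 membrane proteins without a call in SPTLC123 against scramble ranged from -0.10 (SCARB2, the receptor that carries glucocerebrosidase to lysosomes) to 0.28 (LAMP1). In DEGS1 the other 5 ranged from -0.28 (LAPTM4B, adjusted p = 0.0974) to 0.06 (SCARB2). LAPTM4A and LAPTM4B are small transmembrane proteins of late endosomes, and LAPTM4B binds ceramide.

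None of the 5 proton pump genes was called by limma in SPTLC123 against scramble, and 1 was higher and 1 lower at an unadjusted p under 0.05. In DEGS1 1 fell against scramble and 2 were lower than in SPTLC123. ATP6V1B2, a nucleotide-binding subunit of the cytosolic sector, read 9.58, 9.69 and 9.80 in scramble, 9.68, 9.74 and 9.03 in SPTLC123 and 9.44, 8.35 and 8.43 in DEGS1. The lowest 3 values were those of the arrays with weak 5' signal, and DEGS1 lay below scramble without overlap. It fell by 0.95 ± 0.27 in DEGS1 (adjusted p = 0.0468). The call was lost without any scramble array or DEGS1 replicate 2 or 3, at adjusted p from 0.0835 to 0.187. DEGS1 replicate 1 differed from the scramble mean by -0.25, and replicates 2 and 3 by -1.30.

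ATP6V1H, a regulatory subunit of the same sector, read 6.77, 7.13 and 7.08 in scramble, 7.69, 7.59 and 7.20 in SPTLC123 and 6.88, 6.43 and 6.63 in DEGS1. The 2 knockdowns did not overlap, and the scramble mean lay between theirs. DEGS1 differed from SPTLC123 by -0.84 ± 0.16 (adjusted p = 0.00734), by -0.67 within the arrays with weak 5' signal and by -0.75 within the others. Against scramble the changes were 0.49 ± 0.16 in SPTLC123 (adjusted p = 0.0746) and -0.35 ± 0.16 in DEGS1 (adjusted p = 0.199). Its 2 other probe sets, both below that median of 4.86, differed between the knockdowns in the opposite direction. With the mean of the probe sets of ATP6V1H the call was lost (-0.23, adjusted p = 0.0721).

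ATP6AP1, an accessory subunit needed to assemble the pump, read 10.46, 10.43 and 10.42 in scramble, 10.52, 10.67 and 10.46 in SPTLC123 and 10.33, 9.87 and 9.91 in DEGS1. DEGS1 lay below both other groups, with replicate 1 nearest to them. DEGS1 differed from SPTLC123 by -0.51 ± 0.12 (adjusted p = 0.0272), by -0.57 within the arrays with weak 5' signal and -0.26 within the others. This call was lost without SPTLC123 replicate 1 or 2 or DEGS1 replicate 2 or 3, at adjusted p from 0.0818 to 0.119. Against scramble DEGS1 changed by -0.40 ± 0.12 (adjusted p = 0.0701).

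The other pump genes were not called. ATP6V0D1, which links the membrane and cytosolic sectors, changed by -0.42 ± 0.18 in SPTLC123 (adjusted p = 0.176) and 0.05 ± 0.18 in DEGS1 (adjusted p = 0.913). Its SPTLC123 arrays read 9.53, 9.61 and 9.01 against 9.74, 9.83 and 9.83 in scramble. ATP6V1A, the catalytic subunit, changed by -0.09 ± 0.11 and -0.22 ± 0.11 (adjusted p = 0.708 and 0.254). The median change of the 5 pump genes was -0.09 in SPTLC123 and -0.35 in DEGS1 against scramble.

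Of the 10 autophagy genes 1 was called in DEGS1 against scramble and none in SPTLC123 against scramble, where 2 were higher at an unadjusted p under 0.05 in limma. In DEGS1 8 of the 10 had an unadjusted p under 0.05, 3 higher and 5 lower, and the share of all genes at that threshold was not counted. Among these 8, GABARAPL1, ATG5, ATG7 and BECN1 had all 3 arrays with weak 5' signal below the other 6, and ULK1 and ATG12 above. These are 40.0% and 20.0% of the autophagy genes, against 7.74% and 6.88% of all genes. ULK1, the kinase that starts autophagosome formation, read 7.11, 7.28 and 6.84 in scramble, 7.79, 7.27 and 7.81 in SPTLC123 and 7.58, 7.96 and 7.86 in DEGS1. DEGS1 lay above scramble without overlap, while SPTLC123 replicate 2 lay within the scramble range. ULK1 rose by 0.73 ± 0.17 in DEGS1 (adjusted p = 0.021, 165% of the scramble signal). The call was lost without scramble replicate 1 or 3 or DEGS1 replicate 2 or 3, at adjusted p from 0.0508 to 0.0958. In SPTLC123 its change was 0.55 ± 0.17 (adjusted p = 0.0632), which passed without SPTLC123 replicate 2 (0.73, adjusted p = 0.0189). ULK1 was one of the genes whose 3 arrays with weak 5' signal all lay above the other 6.

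ATG14, the subunit that directs the class III phosphatidylinositol 3-kinase to autophagy, read 7.51, 7.31 and 7.37 in scramble, 7.29, 7.03 and 7.26 in SPTLC123 and 7.59, 7.70 and 7.89 in DEGS1. All DEGS1 arrays lay above all others. DEGS1 exceeded SPTLC123 by 0.53 ± 0.11 (adjusted p = 0.0136), by 0.53 within the arrays with weak 5' signal and 0.43 within the others. The call was lost without SPTLC123 replicate 2 or DEGS1 replicate 3 (adjusted p = 0.0607 and 0.0646). Against scramble the changes were -0.20 ± 0.11 in SPTLC123 (adjusted p = 0.313) and 0.33 ± 0.11 in DEGS1 (adjusted p = 0.0914).

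ATG12, the ubiquitin-like protein joined to ATG5, read 9.94, 9.91 and 9.88 in scramble, 10.22, 10.14 and 10.32 in SPTLC123 and 10.10, 10.30 and 10.29 in DEGS1. Both knockdowns lay above scramble, by 0.32 ± 0.09 each (adjusted p = 0.0557 and 0.0548), so neither was called. A dimmer probe set was called higher in both when each probe set was tested on its own (0.83 and 0.58), and the third differed by 0.03 and -0.66 and was not called.

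Among the autophagosome proteins, SQSTM1, the cargo receptor p62, changed by -0.04 ± 0.11 in SPTLC123 (adjusted p = 0.875) and -0.27 ± 0.11 in DEGS1 (adjusted p = 0.149). Its arrays read 10.74, 10.55 and 10.88 in scramble, 10.77, 10.63 and 10.65 in SPTLC123 and 10.52, 10.32 and 10.52 in DEGS1. Its 4 other probe sets, all dimmer, had the opposite sign in DEGS1, where none was called, and 1 of them was called higher in SPTLC123 when tested on its own (0.46, adjusted p = 0.0228). MAP1LC3B, the lipid-conjugated protein used to mark autophagosomes, changed by -0.21 ± 0.13 (adjusted p = 0.403) and -0.11 ± 0.13 (adjusted p = 0.673). Its scramble arrays (9.88, 10.08 and 9.81) overlapped both knockdowns. GABARAPL1, of the same family, read 6.88, 7.44 and 7.12 in scramble, 7.07, 7.04 and 6.31 in SPTLC123 and 7.06, 6.13 and 5.89 in DEGS1. Its 3 lowest values were those of the arrays with weak 5' signal, and its change in DEGS1, -0.78 ± 0.29, was not called (adjusted p = 0.119). ATG5, the conjugation partner of ATG12, and BECN1, a subunit of the same lipid kinase as ATG14, changed by -0.55 ± 0.22 and -0.51 ± 0.21 in DEGS1 (adjusted p = 0.155 and 0.164). ATG7, the activating enzyme of both conjugation systems, changed by -0.41 ± 0.12 (adjusted p = 0.0624). WIPI1, which reads the lipid made by that kinase, changed by -0.26 ± 0.15 (adjusted p = 0.33).

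TFEB and TFE3 were not called by limma in any comparison, and only TFEB in SPTLC123 against scramble had an unadjusted p under 0.05. TFEB read 6.01, 5.93 and 5.78 in scramble, 5.45, 5.69 and 5.65 in SPTLC123 and 5.84, 5.54 and 5.76 in DEGS1. SPTLC123 lay below scramble without overlap, and its change was -0.31 ± 0.11 (adjusted p = 0.115), against -0.19 ± 0.11 in DEGS1 (adjusted p = 0.32). TFE3 changed by -0.01 ± 0.11 and 0.16 ± 0.11 (adjusted p = 0.975 and 0.421). The arrays measure transcript and not the nuclear entry that governs these factors. Of the 8 genes with CACGTG in the promoter 1 was called in SPTLC123 (CD63, lower), 2 in DEGS1 against scramble (CTSA higher, LAMP1 lower) and 2 between the knockdowns (ATG14 higher, LAMP1 lower in DEGS1). Of the 24 genes with a promoter and no such core, 2, 3 and 4 were called.

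The arrays with weak 5' signal stood apart from the rest for part of the list. All 3 arrays with weak 5' signal lay below the other 6 for 8 of the 42 genes (19.0%, against 7.74% of all genes): CTSL, LIPA, LAMP2, ATP6V1B2, GABARAPL1, ATG5, ATG7 and BECN1. They lay above the other 6 for 4 (9.52%, against 6.88%): SCARB2, ULK1, ATG12 and TFE3. Relative to the scramble mean, DEGS1 replicate 1 and the mean of replicates 2 and 3 had the same sign for 29 of the 42 genes, and the difference was smaller in replicate 1 for 31. The median absolute difference was 0.12 in replicate 1 and 0.31 in replicates 2 and 3. Of the 9 genes called in DEGS1 against scramble all 9 had the same sign in both, and 8, all but CTSB, were smaller in replicate 1 (median 0.37 against 0.84). The 9 were called from these same arrays, which favours a shared sign, so they are not set against the 29 of 42. The part of RNA quality in these differences was not tested.

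Fits without the 3 arrays with weak 5' signal leave DEGS1 with 1 array, which is then assumed to vary like the other groups, so a call lost there does not show a smaller change. In them LAMP1 was the only gene of the 42 called in DEGS1 against scramble (-1.004, adjusted p = 0.033). Between the knockdowns LAMP1 (-1.21, adjusted p = 0.018) and TPP1 (0.75, adjusted p = 0.0478) were called. In SPTLC123 against scramble CTSB, LAMP2 and TPP1 kept their calls and ATP6V1H was called higher (0.64, adjusted p = 0.0221). With the actin difference as a covariate 4 genes were called in DEGS1 against scramble: CTSB, LAMP1, LAMP2 and ATP6V1B2.

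**Figure D4:**
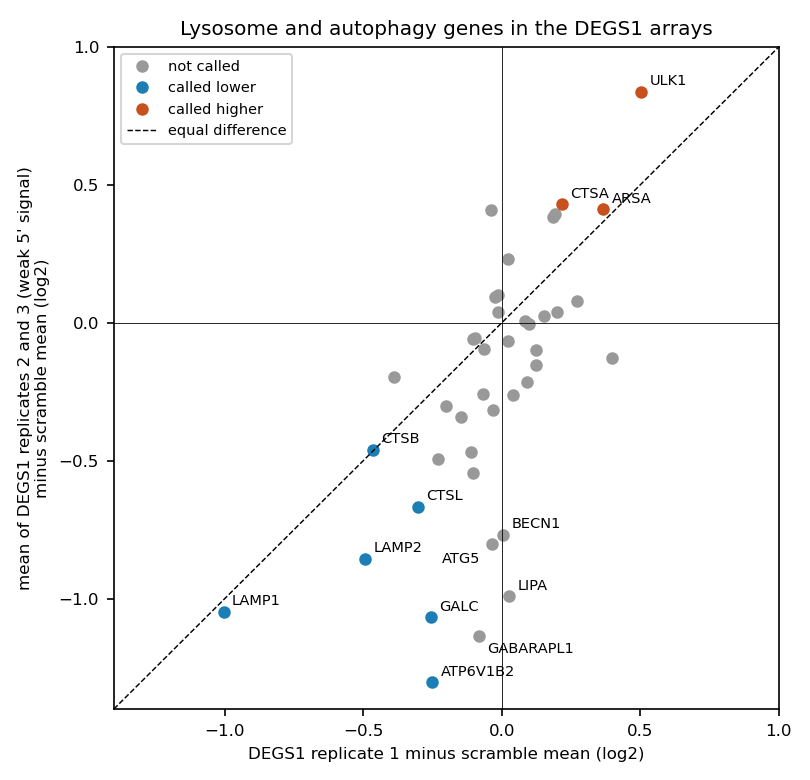
Each point is 1 of the 42 genes, with its log2 difference from the scramble mean in DEGS1 replicate 1 on the x axis and in the mean of DEGS1 replicates 2 and 3, which had weak 5' signal, on the y axis; colours show the call in DEGS1 against scramble and the dashed line equal differences. LAMP1 and CTSB lie close to the line, and ATP6V1B2, GABARAPL1, LIPA, ATG5 and BECN1 lie far below it.

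Wider lists of the same pathways, 139 genes in all that include 6 reference genes, were counted beside these 42. In SPTLC123 and DEGS1 against scramble and between the knockdowns, 17.3%, 16.5% and 15.8% of the 139 were called. The shares over all genes were 9.94%, 9.7% and 8.66%. With dim genes left out, 2082, 2115 and 1834 of 12955 genes were called. These shares lay closer to those of the 139 than the shares over all genes did. The 139 are not counted without their dim genes here. Among 23 other hydrolases 2 rose and 4 fell in SPTLC123, 2 rose and 3 fell in DEGS1, and 3 were higher and 3 lower in DEGS1 than in SPTLC123. PPT1, the thioesterase that removes palmitate from proteins, fell by 1.41 ± 0.11 in SPTLC123 (adjusted p = 2.15e-05) and by 0.66 ± 0.11 in DEGS1 (adjusted p = 0.00338). The knockdowns differed by 0.75 ± 0.11 (adjusted p = 0.00145). SMPD1, acid sphingomyelinase, which makes ceramide in the lysosome, was lower in DEGS1 than in SPTLC123, with a difference of -0.55 ± 0.09 (adjusted p = 0.00331). Against scramble SMPD1 was called higher in SPTLC123 (0.40 ± 0.09, adjusted p = 0.0154) and was not called in DEGS1 (-0.15 ± 0.09, adjusted p = 0.346). ASAH1, acid ceramidase, was not called (-0.25 ± 0.08 in SPTLC123, adjusted p = 0.0726). NEU1, the lysosomal sialidase, rose by 0.53 ± 0.09 in DEGS1 (adjusted p = 0.00449), and LGMN, the asparaginyl endopeptidase that processes cathepsins, fell by 0.74 ± 0.12 (adjusted p = 0.00441). In SPTLC123 against scramble LGMN was also called lower (-0.47 ± 0.12, adjusted p = 0.0366), and NEU1 was not called (0.24 ± 0.09, adjusted p = 0.119).

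Of 22 other membrane and lumenal proteins 1 rose and 3 fell in SPTLC123, 3 rose and 2 fell in DEGS1, and 2 were higher and 1 lower between the knockdowns. CTNS, the cystine exporter, rose by 0.57 ± 0.12 in SPTLC123 (adjusted p = 0.011) and SIDT2 fell by 0.67 ± 0.10 (adjusted p = 0.0018). In DEGS1 against scramble CTNS was also called higher (0.53 ± 0.12, adjusted p = 0.0185) and SIDT2 lower (-0.40 ± 0.10, adjusted p = 0.0297). Of the 2 other probe sets of CTNS 1 had the same sign in each knockdown. LAMP3, a relative of LAMP1, was higher in DEGS1 than in SPTLC123 by 1.10 ± 0.17 (adjusted p = 0.00227). Against scramble LAMP3 was not called in SPTLC123 (-0.52 ± 0.17, adjusted p = 0.0741) or in DEGS1 (0.58 ± 0.17, adjusted p = 0.0517). TPCN2, a cation channel, rose by 0.61 ± 0.10 in DEGS1 (adjusted p = 0.00434). Of 14 other pump subunits 2 rose in each knockdown against scramble and none fell by limma, where 1 in SPTLC123 and 2 in DEGS1 were lower at an unadjusted p under 0.05. ATP6V1C1, which couples the sectors, rose by 0.61 ± 0.09 in SPTLC123 (adjusted p = 0.0017) and was lower in DEGS1 than in SPTLC123 (-0.52 ± 0.09, adjusted p = 0.00504). Of its 3 other probe sets 1 had the same sign in SPTLC123 against scramble and 3 between the knockdowns.

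Of 40 other autophagy genes none rose by limma against scramble (2 were higher in each knockdown at an unadjusted p under 0.05), 7 fell in SPTLC123 and 4 fell in DEGS1, and 4 were higher and 2 lower in DEGS1 than in SPTLC123. UVRAG, a BECN1 partner, fell by 0.75 ± 0.09 in SPTLC123 (adjusted p = 0.000346), WDR45, a WIPI-family protein, by 0.65 ± 0.09 (adjusted p = 0.00123) and CALCOCO2, the receptor NDP52, by 0.75 ± 0.12 (adjusted p = 0.00344). UVRAG and WDR45 were higher in DEGS1 than in SPTLC123 by 0.66 ± 0.09 and 0.81 ± 0.09 (adjusted p = 0.000894 and 0.000382). NBR1, another cargo receptor, fell by 0.77 ± 0.13 in DEGS1 (adjusted p = 0.00414), with the same sign in 1 of its 3 other probe sets. NBR1 was also called lower in SPTLC123 against scramble (-0.48).

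Of 24 genes that control mTORC1 and TFEB, 2 rose and 3 fell in SPTLC123, 2 rose and 1 fell in DEGS1, and 1 was higher and 3 lower between the knockdowns. RRAGD, a Rag GTPase that ties mTORC1 to TFEB, fell by 1.31 ± 0.13 in SPTLC123 (adjusted p = 0.000151). RPTOR, the mTORC1 scaffold, rose by 0.64 ± 0.14 (adjusted p = 0.0129). PPP3CB, a catalytic subunit of calcineurin, which dephosphorylates TFEB, rose by 1.12 ± 0.09 (adjusted p = 4.97e-05), while a second probe set pointed the other way. In DEGS1 against scramble RRAGD was also called lower (-0.57), and RPTOR and PPP3CB higher (0.60 and 0.73). Of 10 genes of mannose 6-phosphate sorting, the route that delivers hydrolases, none was called by limma in SPTLC123 against scramble (1 higher and 2 lower at an unadjusted p under 0.05), and 1 rose and 2 fell in DEGS1. GNPTAB, which starts the tag, fell by 0.70 ± 0.13 (adjusted p = 0.00785).

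Of the calls given above for genes of these wider lists, some were lost in at least 1 fit without a single array. These were CTNS, SIDT2, RRAGD and RPTOR in DEGS1 against scramble, and SMPD1, LGMN and NBR1 in SPTLC123 against scramble. The other calls held without any single array, but the examples had been limited to genes with such a call. Of all wider genes called, 10 of 24, 8 of 23 and 10 of 22 held so in the 3 comparisons. When the 3 arrays with weak 5' signal were dropped, all wider genes called kept their sign: 24 in SPTLC123 against scramble, 23 in DEGS1 against scramble and 22 between the knockdowns. These genes had been called in a fit that included the arrays kept, so a kept sign was likely beforehand. The median absolute change of these genes went from 0.59 to 0.50, from 0.54 to 0.46 and from 0.57 to 0.52. The adjusted p stayed under 0.05 for 15 of the 24, and, with 1 DEGS1 array left, for none of the 23 and 2 of the 22. Of 6 reference genes HPRT1 fell in DEGS1 (-0.51 ± 0.09, adjusted p = 0.00484).

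**Figure D5:**
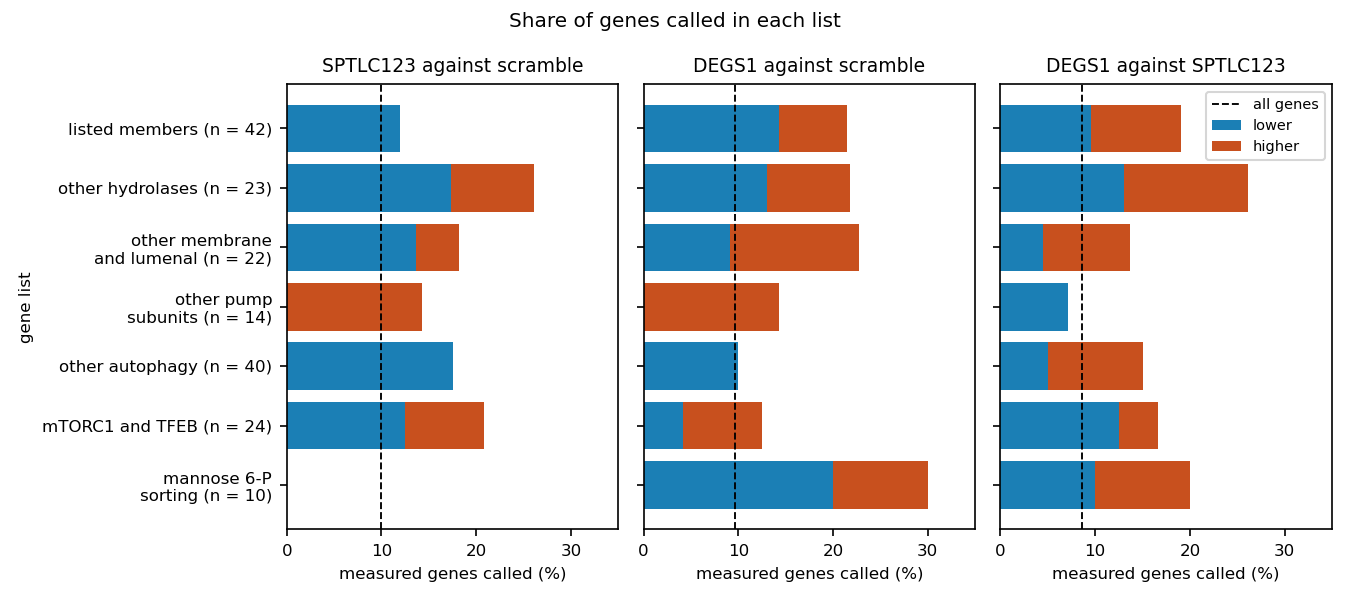
Bars show the percent of measured genes in each list that were called lower (blue) and higher (orange) in the 3 comparisons. The dashed line is the percent of all genes called, dim genes included, 9.94, 9.7 and 8.66. The 42 listed genes come first, at 11.9%, 21.4% and 19.0%.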

How the data were processed

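Total RNA of 9 Huh7 cultures was labelled with biotin from an oligo-dT primer and measured on Affymetrix arrays. The authors deposited normalized intensity on a linear scale, 1 value per probe set (54675) and array, with array medians from 27.92 to 30.0. RMA, GCRMA 2.12.1 and limma 2.14.7 are named in the submitters' processing notes; which of them made the values is not given in the sources used here. Arrays have no read depth, and their number limits the precision.

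Values were log2-transformed without a pseudocount. Of 54613 probe sets without controls, 41091 were annotated to 1 gene, 1801 to several and 11721 to none. All 9 arrays and 19775 genes entered a fit of the 3 group means in limma 3.58.1 (R 4.3.3), two-sided, with Benjamini-Hochberg adjustment over all genes, and was tested on simulated data. Other probe sets of a gene were tested in a fit of every probe set. Replicate numbers did not pair samples (correlations of same-numbered deviations from -0.28 to 0.54). The members, lists and tests were chosen with earlier results of these data known. Named were all genes called, the member with the largest change in each family, LAMP1, LAMP2, MCOLN1, TFEB, TFE3, SQSTM1 and MAP1LC3B, the targets, and up to 4 called genes of each wider list by adjusted p. Examples from the wider lists were then limited to genes with a call that held without any single array, and other values were named after they were seen. The alternatives tried are given with the limits of the results.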

Additional observations from a re-analysis of the deposited data

How the results depend on the processing

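Of 2013 values of the 42 genes under the alternatives, 1765 kept their direction and side of the threshold, 103 changed sign with no call in either setting, 104 lost their call, 40 gained one and 1 reversed: CTSC in DEGS1 against SPTLC123 became -0.54 (adjusted p = 0.0376) with the mean of its probe sets. The causes of these shifts were not tested.

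Counts are given for SPTLC123, then DEGS1, against scramble, then for DEGS1 against SPTLC123. Calls among the 42 genes, 5, 9 and 8, became 3, 6 and 6 with every probe set on its own. They were 10, 4 and 11 with the actin 3'/5' covariate, and 4, 1 and 2 without the 3 arrays with weak 5' signal. Calls over all genes, 1966, 1918 and 1713, became 1429, 1248 and 1210 with every probe set on its own, 2750, 1114 and 2029 with the covariate and 1502, 259 and 281 without those arrays. Leaving out each array in turn gave 1 to 5, 3 to 18 and 4 to 15 calls among the 42 and 1178 to 1496, 801 to 3614 and 841 to 2911 over all genes. Over all genes the extremes were without SPTLC123 replicate 1 and scramble replicate 1, without DEGS1 replicates 3 and 1, and without SPTLC123 replicate 1 and DEGS1 replicate 1. The other settings (mean of probe sets, dim genes left out, quantile normalization, median centring, variance trend and robust eBayes, only the 2 groups compared) gave 4 to 6, 6 to 10 and 6 to 10 among the 42; with only the 2 groups compared the counts were 4, 6 and 6.

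Median centring moved the split over all genes in SPTLC123 against scramble from 1051 higher and 915 lower to 1309 and 695, and among the 42 from 0 and 5 to 2 and 3, where ULK1 and ATG12 were called higher and TPP1 and CD63 lost their calls. In DEGS1 against SPTLC123 it moved the split over all genes from 732 and 981 to 548 and 1179. Quantile normalization gave 6 higher and 4 lower of the 42 there, in place of 4 and 4.

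With the replicate number as a block, calls among the 42 were 4, 8 and 9: CD63 (adjusted p = 0.0636) and CTSA (0.0611) lost theirs and LIPA (0.0439) gained one. Over all genes they were 2062, 2168 and 1801. Arrays with the same number did not deviate together in every pair, so the numbers were not taken as pairing. Arrays have no depth, and background was not measured here.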
